A study of Homo sapiens with 16 samples.

Results

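The genes described here encode the VEGF ligands VEGFA, VEGFB, VEGFC and PGF, the secreted vascular factors ADM, STC1, EDN1 and ANGPTL4, and the co-receptor NRP1. They are 9 of the 26364 genes counted, were chosen by name, and were read in all 16 libraries of a bulk RNA-seq time course of the estrogen response. The 2 human carcinoma lines were each grown alone, Ishikawa from an endometrioid adenocarcinoma of the endometrium and T-47D from the breast. All cells, including those at 0 h, had been moved to medium stripped of hormones, and they were then treated with vehicle (0 h) or with 10 nM 17beta-estradiol (E2) for 2, 4 or 8 h, with 2 replicates of each line at each time. Each line is a single established tumor line without vascular cells around it, and nothing in the labels says that the replicates were separate cultures, so p-values measure the spread between these libraries, which may be technical.

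VEGF ligands are secreted proteins that act mainly on endothelial cells. VEGFA drives the growth and leakiness of blood vessels through the receptor KDR, VEGFB and PGF bind FLT1, and VEGFC drives lymphatic growth through FLT4, with the neuropilins as co-receptors. The remaining secreted factors set vessel tone, permeability and lipid supply. In epithelial tumor cells some of these genes, VEGFA among them, are known for their response to low oxygen. E2 acts in such cells through the estrogen receptor, a transcription factor.

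Libraries held 41177912 to 58918642 counts in Ishikawa cells and 41223813 to 64148903 in T-47D cells. The E2 target genes GREB1, PGR and TGFA rose in both lines, with PGR higher at 8 h by 3.75 on the log2 scale in Ishikawa cells and by 1.09 in T-47D cells. The 5 epithelial markers were above 1 CPM (counts scaled by library size) in every library, the 5 endometrial markers were above 1 CPM in every Ishikawa library, and 4 of the 5 breast luminal markers were above 1 CPM in every T-47D library. The 10 endothelial markers summed to 15.4 to 21.4 CPM in Ishikawa and 3.94 to 5.49 CPM in T-47D libraries. Of these, 2 were above 1 CPM in every Ishikawa library, VWF with 5.16 to 8.64 CPM and ESAM with 9.91 to 12.2 CPM. In every T-47D library 1 was, ESAM with 3.41 to 4.83 CPM. EMCN had 0 counts in every library. In Ishikawa cells the 4 libraries labelled 4 h and 8 h were each nearest to a library of the other time label rather than to their own replicate, and edgeR called 2 genes between 8 h and 4 h there against 533 in T-47D cells. In T-47D cells 7 of 8 libraries were nearest to their own replicate, and 8 h replicate 2 was nearest to a 4 h library. The labels were kept, and the members' results with the 4 h and 8 h libraries as 1 group are also given.

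At 0 h the lines differed in their leading vascular factor (the plot of levels without E2). Levels are compared between genes as RPKM, that is CPM per kb of the canonical transcript. The order depends on this length, which was 3609 bases for VEGFA and 1740 for PGF, against 14431 and 5804 for all their annotated exons. In CPM, VEGFA was above VEGFB in Ishikawa cells at 0 h, with means of 115 and 87.7. In T-47D cells EDN1, the precursor of the vasoconstrictor peptide endothelin, led with 128 and 137 RPKM, above 96.9% of 13888 expressed genes. VEGFB followed with a mean of 43.8 RPKM, ANGPTL4 with 14, ADM with 7.36, VEGFA with 6.37, VEGFC with 1.48, STC1 with 0.849, NRP1 with 0.611 and PGF with 0.0469. In T-47D cells no 2 neighbors in this order overlapped between replicates. In Ishikawa cells VEGFB led with a mean of 47.4 RPKM, ahead of VEGFA with 31.0, PGF with 2.42 and ADM with 1.55. VEGFC, ANGPTL4, EDN1, STC1 and NRP1 were each at or below a mean of 0.318 RPKM in Ishikawa cells, where VEGFC overlapped ANGPTL4 and STC1 overlapped NRP1.

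**Figure D1:**
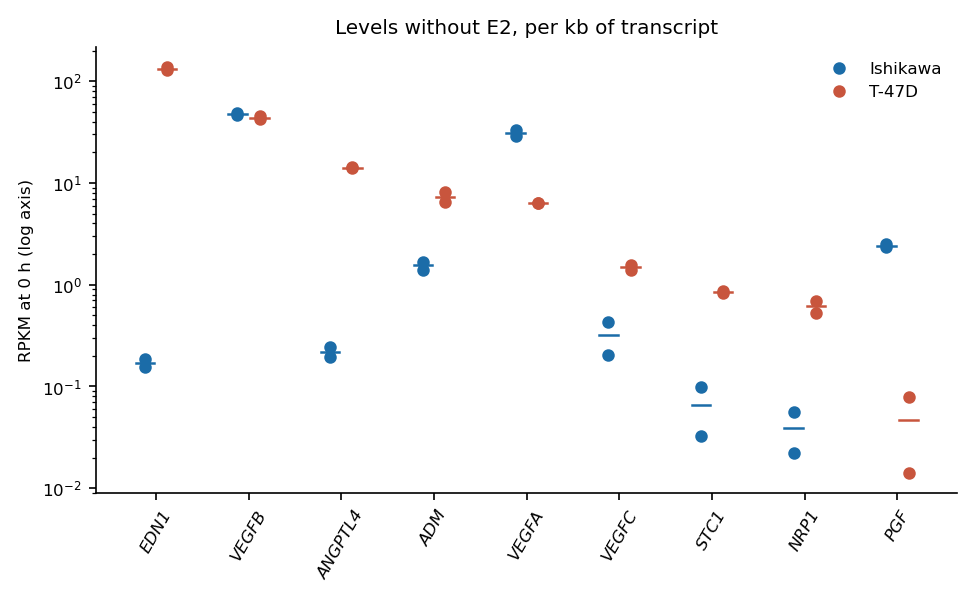
Level of each gene at 0 h in RPKM on a log axis, with 1 point per library and a bar at the mean of the 2 libraries of a line. EDN1 sat at 128 and 137 RPKM in T-47D cells and at 0.157 and 0.185 RPKM in Ishikawa cells, while VEGFB lay between 42.5 and 48.6 RPKM in both lines.

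The test over both lines called 8 of the 9 genes different at 0 h, where edgeR called 81.9% of all 17090 genes tested, so a difference in level was common. In T-47D cells 6 were higher, against 39.5% of genes called in that direction, by 9.59 on the log2 scale for EDN1, 5.99 for ANGPTL4, 3.94 for NRP1, 3.68 for STC1, 2.25 for ADM and 2.22 for VEGFC. Lower there, as were 42.4% of genes, were 2 members, PGF, with a log2 difference of -5.62, and VEGFA, with -2.28. VEGFB had a log2 difference of -0.12 and did not pass (edgeR quasi-likelihood test, adjusted p = 0.0523). It lay close to the threshold. With a minimum of 10 counts in every library it passed, at -0.11 (edgeR adjusted p = 0.0489), and without 1 library its values ran from -0.16 to -0.07. As a share of the summed RPKM of the 4 VEGF ligands at 0 h, VEGFA made up 38.2% ± 1.41 (SD, n = 2) in Ishikawa and 12.3% ± 0.546 in T-47D cells. VEGFB made up 58.4% ± 0.868 and 84.7% ± 0.374. These shares also depend on the transcript lengths used.

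Promoter sequence from RefSeq, from 250 bases before to 50 after the start of a gene on build GRCh38.p14, was at hand for 6 of the 9 genes, and that of VEGFA, STC1 and NRP1 was not used here. The promoters of ADM, EDN1 and ANGPTL4 are shown because ADM rose and ANGPTL4 fell at every time in T-47D cells and EDN1 was the most abundant of the 9 there. ADM lies at chr11:10304823-10305122, EDN1 at chr6:12287769-12288068 and ANGPTL4 at chr19:8363905-8364204, all on the plus strand and written 5′ to 3′. Capitals mark matches, on either strand, to TGACC (an estrogen response element half-site), ACGTG and GCGTG (cores bound by hypoxia-inducible factors) and TATAAA (the TATA box).
ADM: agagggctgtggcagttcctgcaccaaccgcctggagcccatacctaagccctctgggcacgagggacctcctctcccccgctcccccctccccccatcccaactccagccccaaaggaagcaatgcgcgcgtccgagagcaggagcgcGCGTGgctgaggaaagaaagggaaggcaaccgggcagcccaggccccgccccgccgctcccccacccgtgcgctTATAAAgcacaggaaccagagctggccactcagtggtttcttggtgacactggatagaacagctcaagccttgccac
EDN1: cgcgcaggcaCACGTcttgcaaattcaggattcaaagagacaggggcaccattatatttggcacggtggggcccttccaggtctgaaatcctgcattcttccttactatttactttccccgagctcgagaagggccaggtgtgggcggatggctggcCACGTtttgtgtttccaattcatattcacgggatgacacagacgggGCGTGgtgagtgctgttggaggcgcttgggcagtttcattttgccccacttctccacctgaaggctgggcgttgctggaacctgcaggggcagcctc
ANGPTL4: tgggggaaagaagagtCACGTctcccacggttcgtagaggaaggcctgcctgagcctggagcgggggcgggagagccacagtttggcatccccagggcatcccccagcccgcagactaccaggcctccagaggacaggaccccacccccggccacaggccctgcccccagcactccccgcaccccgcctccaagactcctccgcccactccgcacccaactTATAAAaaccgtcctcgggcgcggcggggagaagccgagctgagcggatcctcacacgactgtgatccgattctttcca

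ADM held GCGTG at -101 and TATAAA at -27 from the start (the leftmost base, with the start at 0), EDN1 held ACGTG at -240 and -93 and GCGTG at -47, and ANGPTL4 held ACGTG at -234 and TATAAA at -29. Of 35116 promoters of this length, 21.4% held ACGTG, 36.5% GCGTG, 37.4% TGACC and 11.5% TATAAA. The full estrogen response element GGTCA and TGACC with any 3 bases between, present in 0.057% of promoters, and the AP-1 site TGANTCA, present in 7.71%, matched in none of the 6. The half-site TGACC was found in the promoters of VEGFB, at -52, and PGF, at -108. The start sites in these tables need not be those used in either line.

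After E2, more of the genes were called in T-47D than in Ishikawa cells, as the plot of changes shows. The lines were not equally able to show a change. VEGFC, STC1, EDN1, ANGPTL4 and NRP1 held 4 to 46 counts per library in Ishikawa cells, and PGF at most 25 in T-47D cells. The direct test between lines, given below, called 1, 1 and 3 of the 9 at 2, 4 and 8 h, against 2.67%, 6.03% and 10.0% of genes. In T-47D cells edgeR called 4 of the 9 genes at 2 h, against 9.30% of all genes tested. At 4 h it called 7, against 21.5%, and at 8 h it called 8, against 29.7%. Of the 8, STC1 and ADM were higher, and VEGFA, VEGFB, VEGFC, EDN1, ANGPTL4 and NRP1 were lower. Genes called higher made up 15.4% of all genes tested at 8 h and genes called lower 14.3%. In Ishikawa cells none of the 9 passed at 2 h, against 4.35% of all genes, with 1 at an unadjusted p under 0.05 in edgeR and none called by DESeq2. At 4 h 2 passed, against 14.3%, and at 8 h 1 passed, against 22.1%. Between 8 h and 2 h none passed there in edgeR or DESeq2, against 2.24%, and none had an unadjusted p under 0.05. The median log2 fold change of the 9 genes at 8 h was -0.22 in T-47D and -0.08 in Ishikawa cells, beside medians over all tested genes of 0.00 and -0.01. In bulk RNA, fewer cells expressing a gene and less RNA per cell cannot be told apart.

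**Figure D2:**
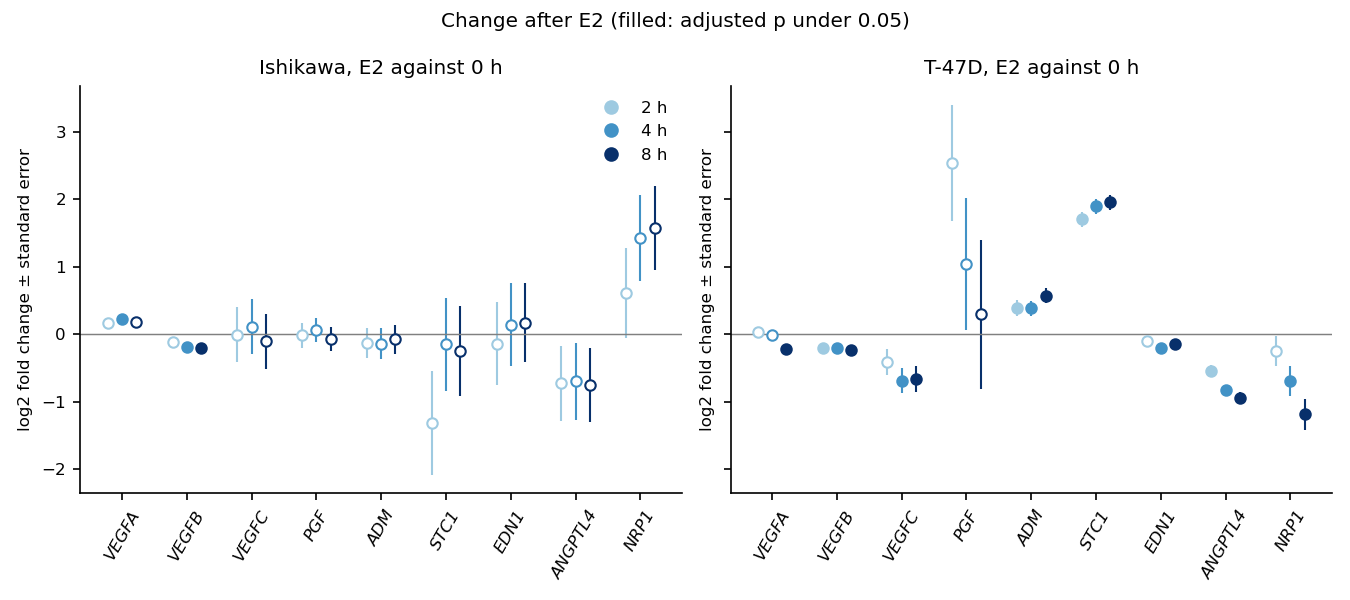
Log2 fold change against 0 h at 2, 4 and 8 h of E2 with its standard error, for each gene in each line. Filled points passed an adjusted p of 0.05 (edgeR). STC1 reached 1.95 in T-47D cells at 8 h, ANGPTL4 fell to -0.94, and few points in Ishikawa cells passed.

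VEGFA, the main blood vessel growth factor of the family, lies at chr6:43737921-43754224 (hg19, plus strand) and overlaps an unnamed gene of the opposite strand that has no counts here. In Ishikawa cells its CPM was 107 and 122 without E2, 129 in both libraries after 2 h, 133 and 135 after 4 h, and 124 and 137 after 8 h. Every treated library was above both 0 h libraries, by small steps. Only the 4 h change passed, at 0.22 ± 0.07 on the log2 scale (standard error, edgeR adjusted p = 0.0411), and 5 of the 8 fits that left out 1 library lost it, with values between 0.14 and 0.32. With the 4 h and 8 h libraries as 1 group, the Ishikawa change against 0 h was 0.20 and passed (edgeR adjusted p = 0.0184). In T-47D cells the CPM was 22.3 and 22.6 without E2, 22.8 and 23.1 after 2 h, 23 and 21.2 after 4 h, and 20.3 and 18.1 after 8 h. The 8 h libraries were the lowest of the 8 and did not overlap any earlier time. The 8 h change of -0.22 ± 0.08 passed against 0 h (edgeR adjusted p = 0.0422), 7 of the 8 fits that left out 1 library lost it, and without 8 h replicate 2 it was -0.13. It was also lost with the 4 h and 8 h libraries as 1 group, at -0.12, and in a fit of only the 0 h and 8 h libraries (adjusted p = 0.0681). Between 8 h and 2 h, where edgeR called 3 of the 9 genes, all lower, against 16.8% of all genes in either direction and 7.23% lower, VEGFA changed by -0.26 (adjusted p = 0.035). That call was lost without 8 h replicate 2 and without either 2 h library, with -0.18 as the smallest change, and at -0.15 against the 4 h and 8 h libraries as 1 group.

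VEGFB, at chr11:64002056-64006736 (hg19, plus strand), binds FLT1 and is tied to fatty acid handling, and it fell slightly in both lines. In T-47D cells its CPM was 79.2 and 75.1 without E2, 65.3 and 68.6 after 2 h, 65.6 and 67.5 after 4 h, and 64.5 and 66.9 after 8 h. All treated libraries lay below both 0 h libraries. The log2 fold change was -0.21, -0.21 and -0.23 at 2, 4 and 8 h, each ± 0.05, with edgeR adjusted p of 0.0155, 0.00595 and 0.00218. The 8 h call was kept in each of the 8 fits without 1 library, and the 2 h call was lost in 3 of them, with -0.15 without 0 h replicate 1. The 4 h call was lost without 0 h replicate 1 (-0.17) or without 4 h replicate 1 (-0.18). In Ishikawa cells the CPM went from 85.1 and 90.2 without E2 to 82.7 and 78.8 after 2 h, 76.6 and 77.0 after 4 h, and 76.8 and 75.1 after 8 h. Here too no treated library reached the 0 h libraries. With the 4 h and 8 h libraries as 1 group, the Ishikawa change against 0 h was -0.20 and passed (edgeR adjusted p = 0.0082). The changes of -0.19 at 4 h and -0.21 at 8 h passed (edgeR adjusted p = 0.0454 and 0.0218), and 6 and 5 of the 8 fits without 1 library lost them.

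VEGFC and PGF were scarce in at least 1 line. VEGFC held 3.42 and 3.13 CPM in T-47D cells without E2, 2.54 and 2.39 after 2 h, 1.74 and 2.35 after 4 h, and 2.16 and 1.96 after 8 h. All treated libraries were below the 0 h libraries, and the change passed at 4 h (-0.69 ± 0.19, edgeR adjusted p = 0.0139) and 8 h (-0.67 ± 0.19, adjusted p = 0.0124). At 8 h, the call was lost without 0 h replicate 1 or without 8 h replicate 2, both at -0.59, and at 4 h without 0 h replicate 1 or without 4 h replicate 1, where the change was -0.47. In Ishikawa cells VEGFC held 0.472 to 0.999 CPM over all 8 libraries, with no change past the threshold. VEGFC lies at chr4:177604689-177714076 (hg19, minus strand) and overlaps an unnamed gene of the opposite strand that has no counts here.

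PGF, a ligand first known from placenta, lies at chr14:75408537-75422329 (hg19, minus strand). It held 3.75 to 5.23 CPM in Ishikawa cells with no change past the threshold at any time. In T-47D cells it held 6 and 1 counts without E2, 25 and 19 after 2 h, 16 and 4 after 4 h, and 0 and 10 after 8 h. The 2 h libraries were the highest, but at 2 h the change of 2.54 ± 0.86 did not pass (edgeR adjusted p = 0.0766). It passed in edgeR without the filter on low counts (adjusted p = 0.0179) and in a fit of only the 0 h and 2 h libraries (adjusted p = 0.0164). At 8 h the change ran from -5.03 to 1.94 over fits without 1 library, so these counts are too few to order the later times.

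**Figure D3:**
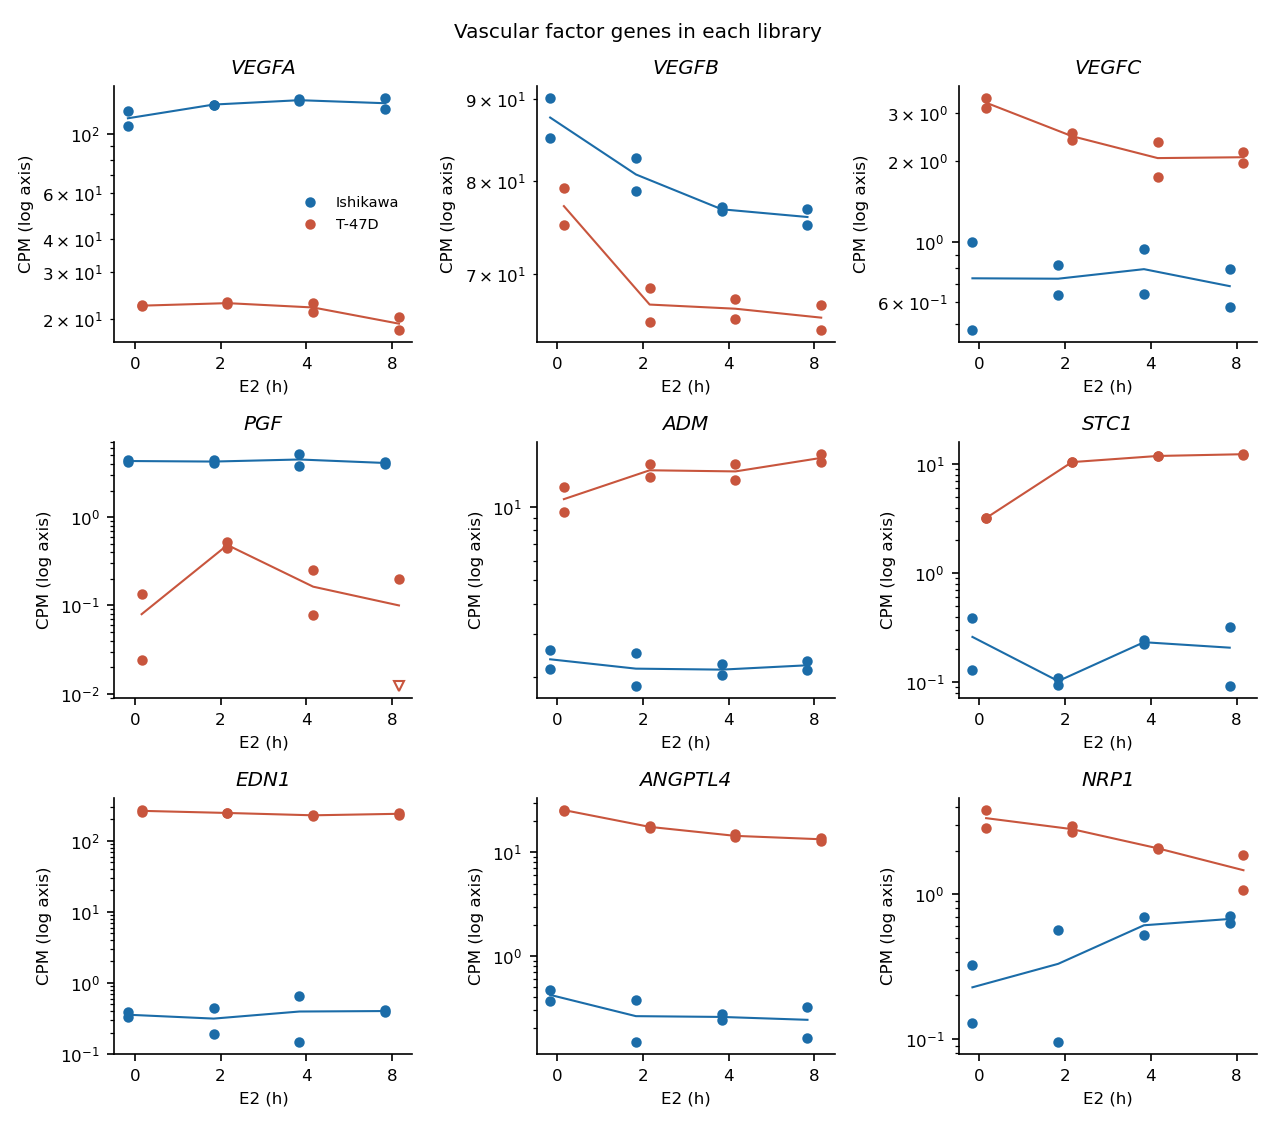
CPM of each gene in each library on log axes that differ between panels, against hours of E2 at even spacing, with 1 point per library and lines through the group means. The open triangle marks a library with 0 counts. STC1 rose from 3.24 and 3.18 CPM to 12.5 and 12.2 CPM in T-47D cells and stayed below 0.4 CPM in Ishikawa cells.

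STC1, a secreted glycoprotein hormone of calcium and phosphate handling that tumor and endothelial cells also make, lies on chromosome 8 and had the largest change past the threshold among the 9 in T-47D cells. It held 3.24 and 3.18 CPM without E2, 10.5 and 10.4 after 2 h, 12 and 11.8 after 4 h, and 12.5 and 12.2 after 8 h, on 131 to 772 counts per library. Replicates lay close together at each time and no treated library came near 0 h. The log2 fold change was 1.70, 1.89 and 1.95 at 2, 4 and 8 h, each ± 0.11, or 3.25-fold, 3.71-fold and 3.85-fold, with edgeR adjusted p of 3.84e-09, 4.94e-10 and 2.77e-10. From 2 h to 8 h it changed by a further 0.25, which did not pass (adjusted p = 0.0868). In Ishikawa cells STC1 held 4 to 19 counts per library, with 18 and 6 without E2 and 19 and 4 after 8 h, and no change passed at this depth.

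ADM, at chr11:10326620-10328944 (hg19, plus strand), encodes adrenomedullin, a peptide that widens vessels and acts through the receptor CALCRL with a RAMP protein. In T-47D cells its CPM was 9.47 and 12 without E2, 13.2 and 15.0 after 2 h, 12.9 and 15.0 after 4 h, and 15.2 and 16.5 after 8 h. Each treated library was above both 0 h libraries, although the 0 h replicates lay apart. Its log2 fold change was 0.39 ± 0.12, then 0.38 ± 0.11 and 0.57 ± 0.11, at the 3 times (edgeR adjusted p = 0.0397, 0.0252 and 0.000953). The 8 h call was kept in each of the 8 fits without 1 library. Without 0 h replicate 1 the 2 h and 4 h changes were 0.25 and 0.22 and were lost, and both were also lost without replicate 2 of the treated time. In Ishikawa cells ADM held 1.83 to 2.58 CPM, lowest at 2 h and highest at 0 h, and no change passed.

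EDN1, at chr6:12290594-12297427 (hg19, plus strand), fell by little in T-47D cells from its high level. Its CPM was 253 and 274 without E2, 243 and 249 after 2 h, 225 and 231 after 4 h, and 233 and 246 after 8 h. Every treated library was below the 0 h libraries, and the changes of -0.21 ± 0.05 at 4 h and -0.14 ± 0.05 at 8 h passed (edgeR adjusted p = 0.0034 and 0.0331). The 8 h call was lost in 6 of the 8 fits without 1 library, at -0.07 without 0 h replicate 2, and the 4 h call was lost without that library, at -0.14, or without 4 h replicate 1. In Ishikawa cells EDN1 held 6 to 26 counts per library.

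ANGPTL4, at chr19:8428173-8439254 (hg19, plus strand), is a secreted inhibitor of lipoprotein lipase that also alters vessel permeability, and it fell at each time in T-47D cells. Its CPM was 25.9 and 25.4 without E2, 17.4 and 17.9 after 2 h, 14 and 14.9 after 4 h, and 13.8 and 13.0 after 8 h. Each time point lay below the one before, with no overlap. The log2 fold change was -0.54 ± 0.08, -0.83 ± 0.08 and -0.94 ± 0.08, and the 8 h level was 0.522 of that at 0 h (edgeR adjusted p = 0.000121, 5.18e-07 and 7.86e-08). From 2 h to 8 h it fell by a further 0.40 on the log2 scale (adjusted p = 0.00225). All of these calls were kept in each fit without 1 library. In Ishikawa cells ANGPTL4 held 7 to 22 counts per library and no change passed.

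NRP1, the co-receptor that binds VEGFA and class 3 semaphorins at the cell surface, fell in T-47D cells. Its CPM was 2.88 and 3.86 without E2, 2.96 and 2.70 after 2 h, 2.07 and 2.10 after 4 h, and 1.08 and 1.86 after 8 h. The 2 h libraries overlapped those of 0 h, and the 4 h and 8 h libraries did not. The changes of -0.69 ± 0.22 at 4 h and -1.19 ± 0.23 at 8 h passed (edgeR adjusted p = 0.0324 and 0.000695). At 8 h the call was kept in each fit without 1 library, with values from -1.63 to -0.85, and the 4 h call was lost without either 4 h library or without 0 h replicate 2, where it was -0.46. From 2 h to 8 h it changed by -0.94 (adjusted p = 0.00909), and that call was lost without 8 h replicate 1, at -0.62, and without 2 h replicate 1. With the 4 h and 8 h libraries as 1 group the change from 2 h was -0.66 and did not pass (adjusted p = 0.0943). In Ishikawa cells NRP1 held 15 and 6 counts without E2, 4 and 31 after 2 h, 21 and 29 after 4 h, and 42 and 28 after 8 h. Those of 4 h and 8 h were above both 0 h libraries, but the 8 h change of 1.57 ± 0.62 did not pass (adjusted p = 0.0832). It passed in edgeR without the filter on low counts (adjusted p = 0.0133) and in a fit of only the 0 h and 8 h libraries (adjusted p = 0.0412). NRP1 lies at chr10:33466420-33625190 (hg19, minus strand) and overlaps an unnamed gene of the opposite strand and a pseudogene that have no counts here.

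The direct test of a difference between lines, taken as the change in T-47D minus that in Ishikawa cells over all 16 libraries, called STC1 at all 3 times. The difference in log2 fold change was 3.02 ± 0.59, 2.06 ± 0.53 and 2.16 ± 0.52 at 2, 4 and 8 h (edgeR adjusted p = 0.00416, 0.0239 and 0.00975). STC1 was the 1 member called at 2 h, against 2.67% of 17090 genes, and the 1 called at 4 h, against 6.03%. These values rested on few Ishikawa counts, and the fit used 1 estimate of the spread of a gene for both lines. In the fit of Ishikawa cells alone the STC1 changes had larger standard errors, 0.77, 0.69 and 0.67. The standard errors and p-values of the difference may therefore be too small. Without Ishikawa 0 h replicate 1, which held 18 counts, the differences were 2.00, 1.05 and 1.14 and none passed (adjusted p = 0.233, 0.47 and 0.338), and the 4 h call was also lost without either Ishikawa 4 h library or without T-47D 4 h replicate 1. Without Ishikawa 8 h replicate 1 the 8 h difference reached 3.39.

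At 8 h, edgeR called 3 members, against 10.0% of genes. Beside STC1, VEGFA differed by -0.41 ± 0.10 (adjusted p = 0.0101), with a change of 0.18 in Ishikawa and -0.22 in T-47D cells, and without T-47D 8 h replicate 2 the difference was -0.33 and did not pass (adjusted p = 0.0665). It was -0.32 with the 4 h and 8 h libraries as 1 group (adjusted p = 0.0505). NRP1 differed by -2.77 ± 0.63 (adjusted p = 0.00641), and the call was kept in each of 16 fits without 1 library, with values from -3.60 to -2.25. Neither STC1 nor NRP1 could be tested with a minimum of 10 counts in every library. For VEGFB the differences of -0.07, -0.01 and -0.03, each ± 0.08, did not pass. ADM, with 0.65 ± 0.23 at 8 h, did not pass either (adjusted p = 0.084).

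**Figure D4:**
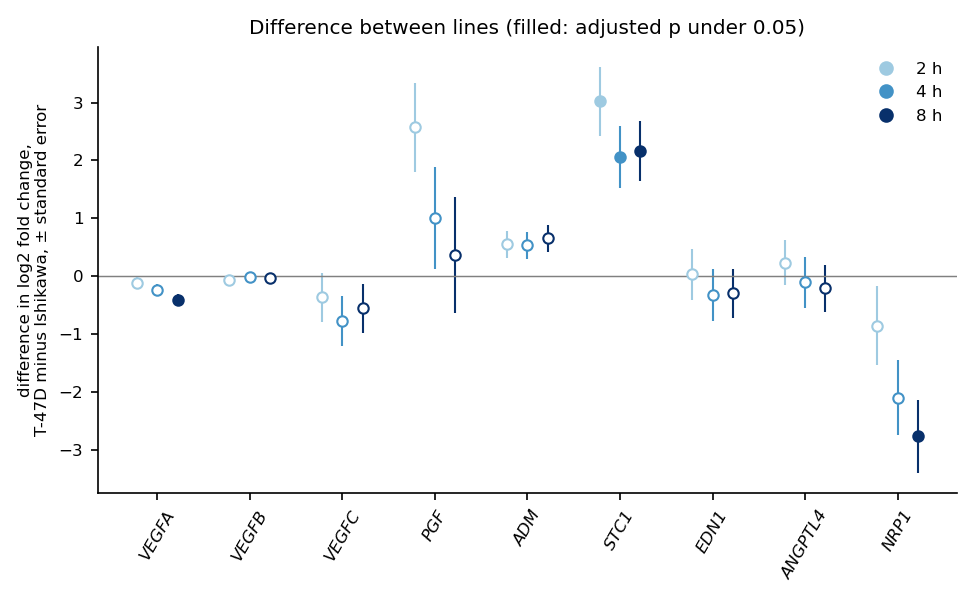
Difference between the log2 fold changes of T-47D and Ishikawa cells at 2, 4 and 8 h, with its standard error. Filled points passed an adjusted p of 0.05 (edgeR). STC1 lay above 0 at each time, and NRP1 and VEGFA lay below 0 at 8 h.

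Treating the 4 h and 8 h libraries as 1 group gave 7 of the 9 genes called against 0 h in T-47D cells, against 24.7% of all genes, and 2 in Ishikawa cells, against 25.7%. VEGFA was the gene called in T-47D cells at 8 h and not in the merged group.

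Lists of related genes were counted at 8 h, when 29.7% of all genes tested were called in T-47D and 22.1% in Ishikawa cells. Shares called higher and lower are given above for T-47D cells only, so the directions within the Ishikawa lists have no such reference. Among 27 other vascular ligands, 19 were tested in T-47D cells, with 1 higher and 5 lower and a median log2 fold change of -0.36. STC2, the paralog of STC1, was the 1 that rose, from a mean of 142 to 723 CPM (2.34 ± 0.05, edgeR adjusted p = 8.71e-16). The ephrins EFNA1 and EFNB2, membrane-bound ligands in vessel patterning, fell by 0.77 and 0.67 on the log2 scale. In Ishikawa cells 2 of 19 rose and 8 fell, with a median of -0.39. Among the latter PDGFB, a ligand that recruits pericytes, fell by 1.11 and CCN2 by 0.79. ANGPTL1 fell by 1.17 ± 0.37, close to the threshold (edgeR adjusted p = 0.0353). These 10 calls became 5 without Ishikawa 0 h replicate 2.

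Of 18 receptors and co-receptors, 8 were tested in T-47D cells and 12 in Ishikawa cells. In T-47D cells at 8 h 1 rose and 4 fell. FLT4, the VEGFC receptor, rose from 6.04 ± 0.588 to 26.6 ± 0.185 CPM (SD, n = 2) with a log2 fold change of 2.14 ± 0.10 (edgeR adjusted p = 3.32e-11), while its ligand VEGFC fell there. ACKR3, a decoy receptor that binds adrenomedullin, fell from 1.36 to 0.25 CPM, by 2.43 on the log2 scale, and PLXNA2, a semaphorin receptor, fell by 0.49. In Ishikawa cells NRP2, the other neuropilin, rose from 0.552 to 2.15 CPM (1.98 ± 0.35, adjusted p = 0.00108), RAMP1 fell by 0.63 and PLXNA3 by 0.42, and 1 of the 12 rose and 4 fell. The 5 calls in Ishikawa cells became 2 without 0 h replicate 2 and 1 without 8 h replicate 1, and the 5 in T-47D cells became 3 without either 0 h library and 2 without 8 h replicate 2.

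Receptor levels differed by gene. In T-47D cells, where EDN1 was high, EDNRA had 0 counts at 0 h and 8 h and EDNRB at most 6, while in Ishikawa cells EDNRA held 3.20 to 5.34 CPM at 0 h and EDNRB 0 counts. CALCRL, the receptor of ADM, held 7.73 to 8.69 CPM at 0 h in Ishikawa cells and at most 6 counts at 0 h and 8 h in T-47D cells. KDR held at most 11 counts at these times in any library, and FLT1 0.794 to 1.70 CPM.

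**Figure D5:**
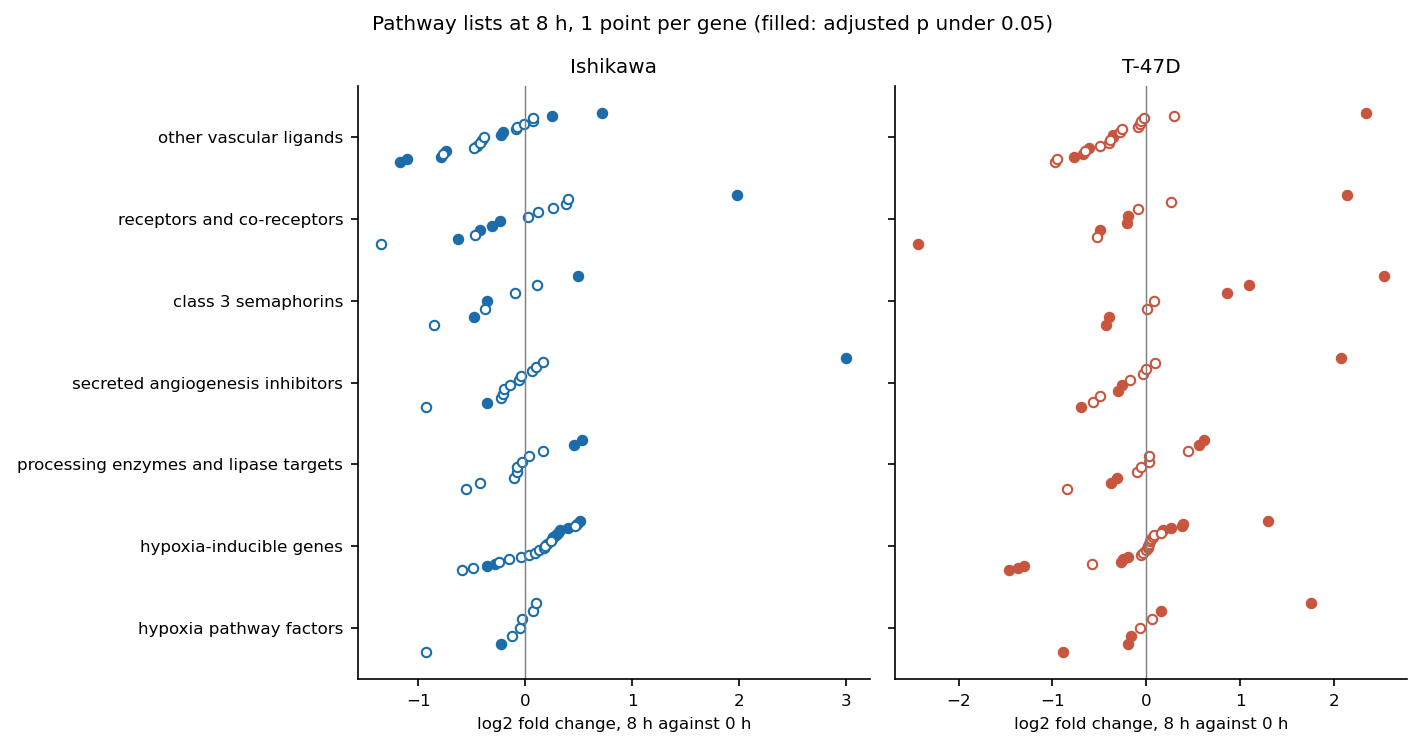
Log2 fold change at 8 h against 0 h of each tested gene of 7 related lists, with 1 point per gene, stacked within a list by value. Filled points passed an adjusted p of 0.05 (edgeR). The highest points are THBS1 in Ishikawa cells (3.00) and SEMA3G in T-47D cells (2.53), and the lowest in T-47D cells is ACKR3 (-2.43).

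All 7 class 3 semaphorins, some of which compete with VEGFA for neuropilins, were tested. In T-47D cells 3 rose and 2 fell at 8 h. SEMA3G (2.53 ± 0.15), SEMA3A (1.09 ± 0.38) and SEMA3C (0.86 ± 0.04) rose on the log2 scale, SEMA3A close to the threshold (edgeR adjusted p = 0.0407). In Ishikawa cells 1 rose and 2 fell, with SEMA3F at 0.49, SEMA3C at -0.48 and SEMA3A at -0.36. The 5 calls in T-47D cells became 3 without 0 h replicate 2 or without 8 h replicate 2. Among the secreted inhibitors of angiogenesis, THBS1 rose in both lines, from 86.0 to 687 CPM in Ishikawa (3.00 ± 0.06, edgeR adjusted p = 4.57e-14) and from 141 to 596 CPM in T-47D cells (2.08 ± 0.05, adjusted p = 1.53e-14). It was the 1 gene that rose of 12 tested in Ishikawa and of 10 in T-47D cells, where 1 and 3 fell, ADAMTS1 by 0.36 in Ishikawa cells and SERPINF1 by 0.70 and TIMP2 by 0.30 in T-47D cells.

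Of 10 processing enzymes and lipase targets tested, ECE1 and ECE2, which cut the endothelin precursor, rose at 8 h in both lines, by 0.53 and 0.45 in Ishikawa and by 0.56 and 0.61 in T-47D cells. No other rose, none fell in Ishikawa cells, and 2 fell in T-47D cells, among them FURIN, a protease that matures VEGFC, at -0.38. The 2 calls in Ishikawa cells became 1 without 8 h replicate 2.

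Of 23 hypoxia-inducible genes tested, 9 rose and 2 fell in Ishikawa cells at 8 h (median 0.18) and 5 rose and 6 fell in T-47D cells (median 0.02). Those named by size were HK2 (0.51), EGLN1 (0.48) and BNIP3 (0.40) in Ishikawa cells and DDIT4 (-1.46), NDRG1 (-1.37) and EGLN3 (-1.30) in T-47D cells. The summed level of the list overlapped between 0 h and 8 h in T-47D cells, at 5130 to 5430 CPM and 4940 to 5240 CPM. It did not overlap in Ishikawa cells, at 4930 and 5030 CPM against 5080 and 5340 CPM, but the gap was smaller than that between the 8 h replicates. The Ishikawa 2 h libraries, at 4780 and 4770 CPM, lay below those of 0 h, and the 4 h libraries held 5510 and 5090 CPM. The 11 calls in Ishikawa cells became 4 without 0 h replicate 2 and 5 without 8 h replicate 2. Of 7 hypoxia pathway factors tested, EPAS1, a hypoxia-inducible factor subunit, fell by 0.89 and EGLN2, a prolyl hydroxylase, rose by 1.76 ± 0.56 in T-47D cells, where 2 rose and 3 fell in all, and in Ishikawa cells 1 fell, ARNT by 0.23. Without 0 h replicate 2 of the line these 5 and 1 calls became 2 and 0.

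The genes whose pattern was most like that of a member were sought by Pearson r of log2 CPM over the 16 libraries after each line's mean was removed, among 8773 or 8774 genes. For VEGFB they were NFIX (r = 0.944), PTMS (0.935) and GLMP (0.926). For ANGPTL4 they were ILK (0.892), CRTAP (0.876) and PTPRA (0.872), and for STC1 they were NUDT16 (0.897), STARD13 (0.876) and CSTF1 (0.874). The libraries share the E2 time course and the replicate spread, so r is a description with no test. For ADM, EDN1, VEGFC, NRP1 and VEGFA the nearest genes were NUMBL (0.80), LSM14B (0.822), BACE2 (0.805), STXBP4 (0.857) and DGKD (0.847). VEGFC, STC1, EDN1, ANGPTL4 and NRP1 held few counts in Ishikawa cells, and their spread there enters r. EDN1 was at 0.145 and 0.645 CPM in the Ishikawa 4 h replicates, against 225 to 274 CPM over all T-47D libraries. How much of r came from such low counts was not tested. Of the genes named here, NUDT16, CSTF1, CRTAP, PTPRA, LSM14B, BACE2, STXBP4 and DGKD passed the edgeR test at no time in either line.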

How the data were processed

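Per the labels and the study's methods, directional libraries were built from poly(A) RNA. Reads were mapped to hg19 by HISAT2, alignments were converted with SAMtools, and featureCounts gave counts on UCSC Known Genes. Tool versions, the strand setting, and how paired or multiply aligned reads were treated are not given in the sources used here. The authors deposited raw counts per gene, 1 table per line, without normalization. Between 1 and 10, 71.2% to 74.6% of counts were even, so 1 fragment may have been counted more than 1 time. The labels give 3 days of hormone deprivation and the study's methods give another length.

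The tests used edgeR 4.0.16 in R 4.3.3, with filterByExpr (15787 genes in Ishikawa, 15594 in T-47D, 17090 over both), TMM scaling, a 4-level time factor per line, the quasi-likelihood F-test and a Benjamini-Hochberg adjusted p under 0.05 over all genes tested. All 9 members passed the filter in each fit. Differences between lines used the interaction over 16 libraries. Standard errors came from the estimate and its F statistic. CPM used TMM library sizes of the line, and RPKM those of all 16 libraries and canonical transcripts of GENCODE on GRCh37, which matched 85.3% of 26364 symbols. Members and gene lists were chosen with earlier results of these data known. The members, up to 3 called genes per list and line by size of change at 8 h, and the 3 genes most like each called member were named. The levels of FLT1, KDR, EDNRA, EDNRB and CALCRL were chosen after values were seen.

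Replicates differed by more than sampling noise in every pair (chi-square per gene 3.7 to 11.4), and none was merged. The script was tested on simulated data. Alternatives were DESeq2 1.42.0, scaling by RLE, no filter on counts, a minimum of 10 counts in each library, a threshold of 0.01, a replicate block, only the groups compared, 4 h and 8 h as 1 group, and leaving out each library.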

Additional observations from a re-analysis of the deposited data

Results flagged for a closer look

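In the direct test of a difference between the lines, 5 results stood out, given here as T-47D minus Ishikawa on the log2 scale. STC1 changed more in T-47D cells at 2 h (3.02), at 4 h (2.06) and at 8 h (2.16), with both T-47D libraries above 0 h at each time and Ishikawa libraries at 4 to 19 counts. VEGFA differed by -0.41 at 8 h, with both treated libraries above 0 h in Ishikawa cells and both below in T-47D cells. NRP1 differed by -2.77 at 8 h in the same way, on 6 to 42 Ishikawa counts and 54 to 159 T-47D counts at 0 h and 8 h.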

How the results depend on the processing

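No call on a member reversed its direction under any alternative. RLE scaling kept each of the 108 log2 fold changes on its side of the threshold. Shares of all genes called are given only for the main tests and for the merged group against 0 h. The member counts under other settings show how calls moved, and cannot be set against the other genes. At an adjusted p under 0.01, 0 members were called in Ishikawa cells at 4 h or 8 h (0 each), 2, 4 and 5 in T-47D cells at 2, 4 and 8 h, and 0 between lines at 4 h. DESeq2 called 2 members between lines at 2 h and 2 at 4 h, adding PGF and NRP1. Without a filter, 2 were called in Ishikawa cells at 8 h, and 2 between lines at 2 h and also at 4 h (2). With a minimum of 10 counts in each library, 0, 0 and 1 were called between lines at 2, 4 and 8 h, and 4 at 0 h, since fewer members were tested. In a fit of only the groups compared, 2 were called between lines at 2 h and 2 at 4 h, against 0 in Ishikawa cells at 4 h. The same fit lost VEGFA (adjusted p = 0.0681) and EDN1 (0.0719) at 8 h in T-47D cells, leaving 6, ADM there at 4 h (0.0517), and VEGFB at 8 h in Ishikawa cells (0.0717). With the 4 h and 8 h libraries as 1 group, 2 were called in Ishikawa cells, 1 in T-47D cells against 2 h, and 2 between lines. Without 1 library at a time, calls ran from 0 to 2 (4 h) and 0 to 1 (8 h) in Ishikawa cells, from 2 to 5, 3 to 7 and 6 to 7 at 2, 4 and 8 h in T-47D cells, from 1 to 4 at 8 h against 2 h there, from 0 to 2, 0 to 2 and 2 to 4 between lines, and from 8 to 9 for the level at 0 h. Uncalled log2 values turned sign 45 times in the 1152 values of these fits and 3 times in the 72 with the 4 h and 8 h libraries as 1 group. In T-47D cells against 0 h, those that turned without 1 library were PGF at 4 h (-0.07 to 2.69) and 8 h (-5.03 to 1.94) and VEGFA at 4 h (-0.07 to 0.03). Except where fewer members or samples entered, the cause was not tested.

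With a replicate block, 1 member was called in Ishikawa cells at 4 h, and VEGFB lost its call there (-0.19, edgeR adjusted p = 0.0661). The same-numbered libraries shared only a number, with correlations of their deviations from -0.0838 to 0.0499 in Ishikawa and -0.0274 to 0.0384 in T-47D cells over 6 pairs of times each. The block changed no other call on a member. Depth limited VEGFC, STC1, EDN1, ANGPTL4 and NRP1 in Ishikawa cells and PGF in T-47D cells, each under 50 counts per library, so changes there were not detectable unless large.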
